A study of Mus musculus with 12 samples.

Results

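The photoreceptor ribbon synapse was examined through 10 genes, chosen by symbol, out of 53707 genes in the deposited table. They form 3 groups by role: the presynaptic calcium channel complex (Cacna1f, Cacna2d4 and Cabp4), the scaffold of the ribbon and active zone (Rims2, Bsn, Pclo and Ctbp2), and the proteins that reach across the synaptic cleft or lie in it (Elfn1, Lrit1 and Egflam). The symbols were listed by role, with earlier results of these data known, and all 10 genes were found in the table and passed the filter on low counts. RNA-seq had been carried out on retinal explants, which are whole retinas kept alive in culture medium. The retinas came from wild-type C57Bl/6J mice at 28 days of age and were cultured for 48 hours with either 5 mM or 25 mM glucose in an otherwise shared medium. Sclera and pigment epithelium had been removed, so the explants had neither that epithelium nor a blood supply. Each concentration was represented by 3 biological replicates, every one of them with 2 technical replicates (12 libraries), and the sources do not say whether a biological replicate was 1 retina or a pool. P-values therefore measure the spread between these replicates, which may be technical. According to the labels, first technical replicates belonged to batch 1 and second ones to batch 2, and both concentrations were equally represented in either. Libraries held 17998905 to 36692484 estimated counts at 5 mM and 14815285 to 23129541 at 25 mM, and the summed replicates 43002302 to 60098862 and 37944826 to 42451809.

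Rods and cones release glutamate without pause in darkness and less of it in light. At their terminals a ribbon, a plate built largely from RIBEYE, holds synaptic vesicles close to L-type calcium channels of the Cav1.4 kind, whose pore is the product of Cacna1f. Loss of the channel or its auxiliary proteins impairs transmission to bipolar cells and underlies forms of congenital stationary night blindness. Across the cleft, ON bipolar cells sense glutamate through the receptor mGluR6 (Grm6), which is held in register with the terminal by leucine-rich repeat proteins and by the pikachurin-dystroglycan complex. Bsn, Pclo, Rims2 and Ctbp2 are also used in other neurons of the retina, and whole-retina RNA does not separate these sources.

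Of the 10 ribbon synapse genes, 3 rose at 25 mM glucose (Cacna1f, Cabp4 and Egflam) and none fell, at a false discovery rate (FDR) under 0.05. The FDR is the p-value of edgeR's quasi-likelihood test on summed technical replicates, adjusted by Benjamini-Hochberg over all 21061 genes tested. Over all genes 1.98% passed this threshold (417 genes), and 1.47% passed it as higher (309 genes). After the values had been corrected for GC content and length, 2712 genes passed, of which 45.2% were higher, compared with 74.1% of the 417. For 9 of the 10 genes the log2 fold change was above 0, with a median of 0.93, whereas the median over all genes tested was -0.01. In 6 of them (Cacna1f, Cabp4, Rims2, Elfn1, Lrit1 and Egflam) each of the 3 replicates at 25 mM lay above each of the 3 at 5 mM, which was the case for 16.0% of all genes (31.8% when either direction was counted). These 6 were also the members under an FDR of 0.1, which 6.65% of all genes passed as higher. At the stricter limit of an FDR under 0.01 with a fold change over 2, 0 members and 0.0% of genes were called by edgeR and 5 members and 1387 genes by DESeq2, while 7 members and 6052 genes had an unadjusted edgeR p under 0.05. The calls depended on single replicates: without 5 mM replicate 1, 7 members and 5845 genes (26.6%) were called, without 25 mM replicate 3 the same 3 members and 494 genes were, and without any 1 of the other 4 replicates edgeR called 0 genes, with 6 or 7 members and 3813 to 4071 genes at an unadjusted p under 0.05.

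**Figure D1:**
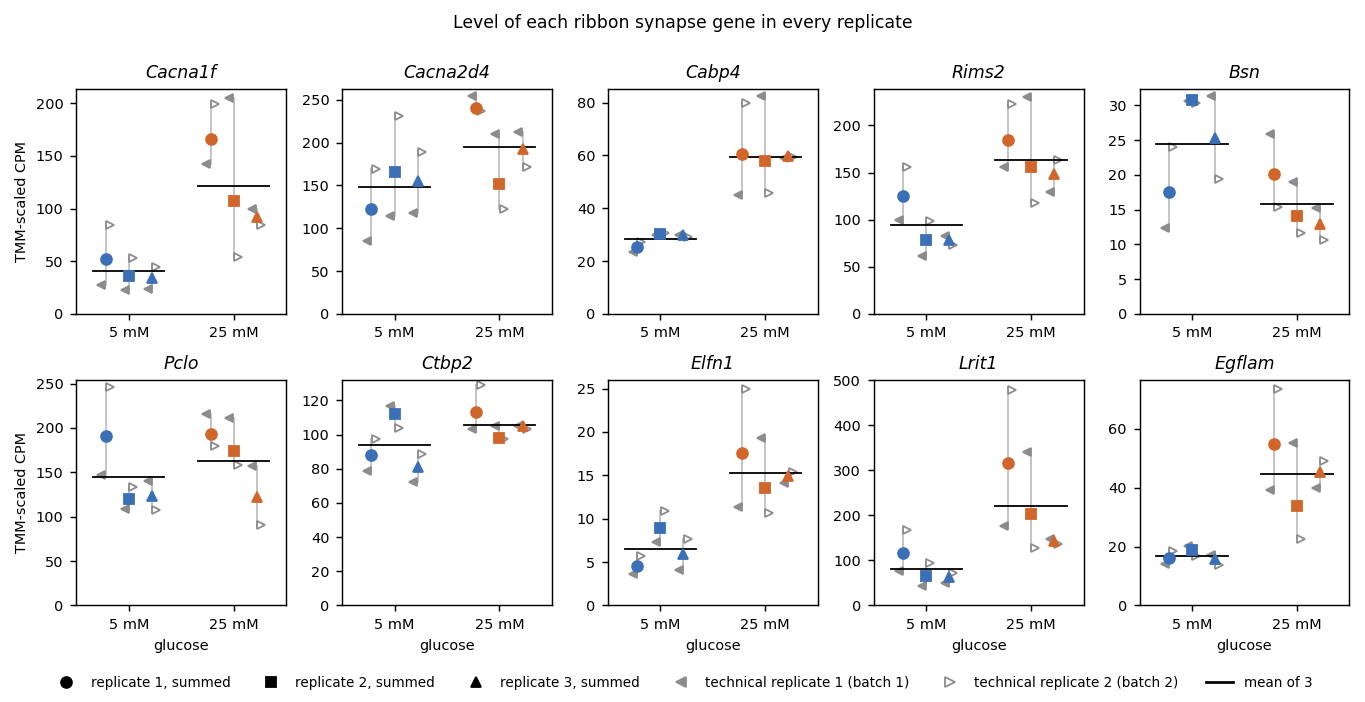
Level of each ribbon synapse gene, in CPM scaled by TMM factors (linear axis from 0), at 5 mM (blue) and 25 mM glucose (orange). Large symbols are the 3 biological replicates, small grey triangles their technical replicates in batch 1 (filled) and batch 2 (open), and black lines the means. In Cabp4 the 3 summed replicates at 25 mM lie between 57.9 and 60.5 CPM, above all values at 5 mM. Their technical replicates range from 44.9 to 82.4 CPM. In Pclo and Ctbp2 the conditions overlap.

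Levels per transcript length, in TPM (transcript counts divided by length and scaled to a common total, mean ± SD, n = 3), placed the members in a broad order. At 5 mM glucose Ctbp2 (81.5 ± 15.1), Cacna2d4 (70.2 ± 12.9) and Rims2 (60.1 ± 14.1) were the most abundant, and each overlapped the next among its replicates. Rims2 did not overlap Lrit1 (35.1 ± 11.9), which was followed by Cabp4 (32.8 ± 4.12), Cacna1f (23.5 ± 4.49) and Pclo (20.1 ± 4.76), again with overlapping neighbours. Egflam (7.59 ± 1.11) lay apart from the genes above and below it, and Bsn (4.83 ± 1.49) and Elfn1 (3.36 ± 1.25) overlapped at the lower end. At 25 mM glucose Rims2 (109.5 ± 19.9), Lrit1 (105.6 ± 49.7), Ctbp2 (100.2 ± 16.0), Cacna2d4 (98.6 ± 29.0), Cacna1f (76.1 ± 29.4) and Cabp4 (75.0 ± 7.74) formed an upper series in which every gene overlapped the next. Pclo (24.8 ± 6.63) and Egflam (21.5 ± 6.74) followed, then Elfn1 (8.42 ± 1.96) and, lowest, Bsn (3.39 ± 1.11). Bsn and Elfn1 thus stood in opposite order at the 2 concentrations, without overlap at 25 mM.

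The calcium channel complex held 2 of the 3 called genes. Cacna1f (ENSMUSG00000031142, GRCm38 chromosome X, 7607083 to 7635196) encodes the pore-forming subunit of Cav1.4. Levels are given in CPM, counts scaled to library size. Its replicates measured 52.2, 36.0 and 34.2 CPM at 5 mM glucose and 166.0, 107.4 and 91.9 CPM at 25 mM. All 3 high-glucose values were above all 3 low-glucose values, with replicate 1 the highest at both concentrations. The log2 fold change was 1.58 with a standard error (SE) of 0.27, a fold of 2.98, and passed the test (edgeR FDR 0.038).

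Cabp4 (ENSMUSG00000024842, chromosome 19, 4135423 to 4144033) encodes a calcium-binding protein that tunes the voltage at which Cav1.4 opens. It measured 25.5, 30.4 and 29.7 CPM at 5 mM and 60.5, 57.9 and 59.8 CPM at 25 mM glucose. Its summed replicates had the smallest relative spread of the members at 25 mM (SD 1.31 around a mean of 59.4 CPM). The technical replicates behind these sums differed more. They measured 44.9 and 79.7 CPM in 25 mM replicate 1, 82.4 and 45.6 CPM in replicate 2 and 59.2 and 59.4 CPM in replicate 3. The log2 fold change of Cabp4, 1.06 (SE 0.16), corresponded to 2.08-fold (edgeR FDR 0.0308). Exons of Cabp4 overlap those of Gpr152 on the opposite strand, and the sources do not state whether counting used the strand.

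Cacna2d4 (ENSMUSG00000041460, chromosome 6, 119236526 to 119352407), the auxiliary subunit that brings the channel to the membrane, was already abundant at 5 mM glucose. Values were 122.0, 166.1 and 155.7 CPM at 5 mM and 240.3, 151.5 and 192.1 CPM at 25 mM. The conditions overlapped through 25 mM replicate 2. The log2 fold change of 0.40 (SE 0.22) did not pass the test (edgeR FDR 0.255), and with the correction for GC content and length it was 0.61 and passed (edgeR FDR 0.0464). In the deposited gene table Cacna2d4 was 1.25 to 1.59 times the sum of its transcripts, the widest departure among the members.

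Of the 4 scaffold genes, edgeR called 0, with 2 at an unadjusted p under 0.05, and DESeq2 called 1. Rims2 (ENSMUSG00000037386, chromosome 15, 39198261 to 39684372), an active-zone protein that couples vesicles to calcium channels, measured 125.5, 78.5 and 78.0 CPM at 5 mM and 184.1, 156.3 and 148.7 CPM at 25 mM glucose. Its groups did not overlap, with a log2 fold change of 0.79 (SE 0.22, edgeR FDR 0.0787). Without 5 mM replicate 1 it was 1.06, with an edgeR FDR of 0.0114.

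Ctbp2 (ENSMUSG00000030970, chromosome 7, 132987563 to 133124354), which encodes both RIBEYE and the transcriptional corepressor CtBP2, showed 88.0, 111.8 and 81.3 CPM at 5 mM and 113.1, 98.1 and 105.0 CPM at 25 mM. The groups overlapped and the log2 fold change was 0.17 (SE 0.17, edgeR FDR 0.53). With the correction for GC content and length it was 0.52 (edgeR FDR 0.111), and with a block for replicate number added 0.55, which passed the test (edgeR FDR 0.0476). Its exons overlap those of Fgfr2 on the same strand. Pclo (ENSMUSG00000061601, chromosome 5, 14514918 to 14863459) encodes piccolo, a very large scaffold of the active zone. It measured 191.5, 120.3 and 123.6 CPM at 5 mM and 193.0, 173.9 and 122.5 CPM at 25 mM. The groups covered nearly the same range (log2 fold change 0.17, SE 0.25, edgeR FDR 0.673).

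Bsn (ENSMUSG00000032589, chromosome 9, 108096022 to 108190384), whose product bassoon anchors the ribbon to the presynaptic membrane, was the exception in direction. It measured 17.5, 30.8 and 25.3 CPM at 5 mM and 20.2, 14.1 and 13.0 CPM at 25 mM glucose. The groups overlapped because 5 mM replicate 1 lay below 25 mM replicate 1. The log2 fold change was -0.64 (SE 0.28, edgeR FDR 0.171). Without 5 mM replicate 1 it was -0.83 and passed the test (edgeR FDR 0.0392), without 25 mM replicate 1 it was -0.85 and did not (edgeR FDR 0.219), and with the correction for GC content and length it was -0.19 (edgeR FDR 0.515). Bassoon and piccolo are related proteins, and their log2 fold changes of -0.64 and 0.17 were not tested against each other. Exons of Bsn overlap those of Gm47303 on the same strand, and exons of Pclo those of Gm26918 and Gm26954 on the opposite strand.

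The adhesion and matrix group had the highest median log2 fold change of the 3 groups, at 1.41, compared with 1.06 for the channel complex and 0.17 for the scaffold. Egflam (ENSMUSG00000042961, chromosome 15, 7206120 to 7398395) encodes pikachurin, the cleft protein that binds dystroglycan. It measured 16.1, 18.8 and 15.6 CPM at 5 mM and 54.7, 33.9 and 45.2 CPM at 25 mM glucose, with no overlap. The log2 fold change was 1.41 (SE 0.22), or 2.65-fold, and passed the test (edgeR FDR 0.033). Its exons overlap those of Gm16029 on the opposite strand.

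Elfn1 (ENSMUSG00000048988, chromosome 5, 139907943 to 139974722), a leucine-rich repeat protein of rod terminals that contacts mGluR6, was the least abundant member at 5 mM. It measured 4.57, 8.96 and 5.98 CPM there and 17.6, 13.5 and 14.9 CPM at 25 mM, without overlap (log2 fold change 1.24, SE 0.30, edgeR FDR 0.0649). Lrit1 (ENSMUSG00000041044, chromosome 14, 37054830 to 37064946), another leucine-rich repeat protein of the photoreceptor terminal, measured 116.8, 65.9 and 62.1 CPM at 5 mM and 316.9, 202.6 and 142.6 CPM at 25 mM. Its groups also did not overlap, although replicate 1 was well above the others at both concentrations, and the log2 fold change of 1.44 (SE 0.35) missed the threshold (edgeR FDR 0.0654). The fold of Lrit1, 2.70, was close to the 2.65 of Egflam, with a larger SE.

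**Figure D2:**
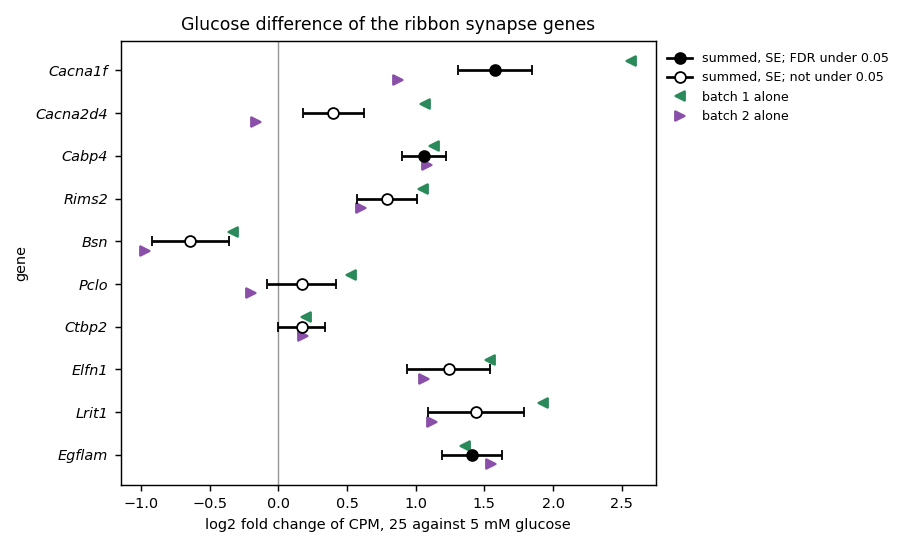
Log2 fold change of CPM, 25 mM against 5 mM glucose, for each ribbon synapse gene. Circles with bars give the value and SE from the summed technical replicates (filled where the edgeR FDR is under 0.05), and triangles the values in batch 1 (green) and batch 2 (purple) alone. Cacna1f ranges from 0.87 in batch 2 to 2.57 in batch 1, whereas Cabp4, Ctbp2 and Egflam lie close together in both.

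Promoter windows of 300 bases, from 250 before to 50 after the start site, were available in RefSeq (GRCm38.p6) for 7 of the 10 genes; Cacna2d4, Cabp4 and Rims2 were not matched. The 250 bases upstream of Cacna1f, Lrit1 and Egflam are printed because Cacna1f and Egflam rose with glucose and Lrit1 had the profile closest to that of Cacna1f among the other members. The window at the RIBEYE start lies inside Ctbp2 and largely within exons of that gene, and 30 bases of it are printed because RIBEYE has a start site of its own. The upstream bases of the other 3 lie before the annotated genes, apart from the last 20 of Cacna1f, which fall in exons of some of its transcripts in GENCODE M21. Each sequence reads 5′ to 3′ on the strand of the gene, and capitals mark matches on either strand to TAATCC (the core bound by CRX), TGCTGA (part of the site of NRL), GGGCGG (a GC box) or CAGATG (an E-box bound by NEUROD1).
Cacna1f, chrX:7606853-7607102, + strand: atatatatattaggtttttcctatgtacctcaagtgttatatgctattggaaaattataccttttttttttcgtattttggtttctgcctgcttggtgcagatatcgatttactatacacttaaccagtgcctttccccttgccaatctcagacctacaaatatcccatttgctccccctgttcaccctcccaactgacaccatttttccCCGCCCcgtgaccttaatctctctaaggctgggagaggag
Lrit1, chr14:37054580-37054829, + strand: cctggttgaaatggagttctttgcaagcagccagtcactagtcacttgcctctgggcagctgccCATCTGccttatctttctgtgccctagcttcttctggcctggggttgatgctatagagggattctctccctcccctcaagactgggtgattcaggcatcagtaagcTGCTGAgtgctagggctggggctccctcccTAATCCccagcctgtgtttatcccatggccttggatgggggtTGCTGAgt
Egflam, chr15:7398396-7398645, - strand: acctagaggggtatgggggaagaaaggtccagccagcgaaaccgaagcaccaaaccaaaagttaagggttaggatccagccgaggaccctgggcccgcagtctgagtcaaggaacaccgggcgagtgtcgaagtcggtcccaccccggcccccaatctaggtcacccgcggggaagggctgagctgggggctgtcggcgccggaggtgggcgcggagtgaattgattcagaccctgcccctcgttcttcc
RIBEYE start of Ctbp2, chr7:133015351-133015380, - strand: taaggtttcagaGGATTAataatttaggtc
The upstream bases of Lrit1, a single-transcript gene, held the CRX core at position -50 from the start site, the NRL letters at -80 and -8, and the E-box at -186. Upstream of Cacna1f there was 1 GC box, at -40, and an E-box lay at 15, past the start. No match fell in the printed bases of Egflam, whose GC box lay at 33, past the start. The RIBEYE start had the CRX core at -121. Among the other members, the window of Pclo held 4 GC boxes and 1 E-box, and those of Bsn, Elfn1 and the other start of Ctbp2 held none of the 4 motifs. Of 32851 promoter windows of the same length, 7.1% held TAATCC, 19.5% TGCTGA, 35.7% GGGCGG and 17.2% CAGATG. A match of 6 letters is a description of the window and not a binding site.

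The technical replicates were next compared as batches. Fitted on batch 1 alone, 7 of the 10 genes passed the edgeR threshold (Cacna1f, Cacna2d4, Cabp4, Rims2, Elfn1, Lrit1 and Egflam), where 17.3% of 18969 genes did. In batch 2 alone 0 members and 0.0% of 18811 genes passed, while 4 members and 2203 genes had an unadjusted p under 0.05. The median log2 fold change of the members was 1.10 in batch 1 and 0.74 in batch 2. Cabp4 had nearly the same value in both (1.13 and 1.08), as did Egflam (1.36 and 1.55), and in these 2 genes the libraries of the conditions did not overlap within either batch. In all, 8 members did not overlap in batch 1, where 39.8% of all genes did not, and 3 in batch 2, where 16.3% of all genes did not. Cacna1f had a log2 fold change of 2.57 in batch 1 and 0.87 in batch 2, Lrit1 1.93 and 1.12, Elfn1 1.54 and 1.06, and Rims2 1.05 and 0.60. Cacna2d4 went from 1.07 to -0.16 and Pclo from 0.53 to -0.20. Bsn had -0.33 and -0.97, with all batch 2 libraries at 25 mM below those at 5 mM.

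A test of the batch-by-glucose term over all 12 libraries called 0 members and 0.0% of 20306 genes at an edgeR FDR under 0.05. At an unadjusted p under 0.05 there were 2 members, Cacna2d4 (batch 2 minus batch 1, -1.28, SE 0.24, edgeR FDR 0.17) and Cacna1f (-1.78, SE 0.57, edgeR FDR 0.237), and 15.5% of all genes (3153). Cacna1f measured 27.7, 22.5 and 23.2 CPM in the first technical replicates at 5 mM glucose and 84.3, 52.9 and 44.0 CPM in the second. At 25 mM the first gave 141.9, 204.8 and 99.1 CPM and the second 199.4, 53.6 and 84.4 CPM. The second technical replicate of 25 mM replicate 2 thus fell within the range of the second technical replicates at 5 mM. Over the 10 members the median log2 ratio of the second to the first technical replicate was 0.69, 0.44 and 0.13 in the 3 replicates at 5 mM and 0.51, -0.86 and -0.06 in those at 25 mM, in the order of their numbers. In Egflam, 25 mM replicate 2 likewise went from 55.2 to 22.5 CPM, which stayed above the highest second technical replicate at 5 mM (18.4 CPM).

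The transcript table was then used to ask which forms of each gene carried the reads. It held 73 transcripts of the 10 genes, of which 46 passed the filter. At an edgeR FDR under 0.05, 0 of these 46 and 0.0% of all 64990 transcripts tested were called, with 16 of the 46 and 10668 of all transcripts at an unadjusted p under 0.05. DESeq2 called 12 of the 46 and 4714 in all. In 20 of the 46 the replicates at 25 mM all lay above those at 5 mM, compared with 13.3% of all transcripts, and in 1 (Bsn-202) all lay below. By annotated type, 12 were retained-intron forms, with a median log2 fold change of 1.61 and 8 without overlap. The 25 protein-coding forms had a median of 0.38 and 8 without overlap. Most of the 12 retained-intron forms belonged to Cacna1f, Cabp4 and Egflam, the genes called, whereas the coding forms were spread over all members. The difference between types therefore cannot be told apart from the difference between genes. Values over all retained-intron transcripts were not computed.

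**Figure D3:**
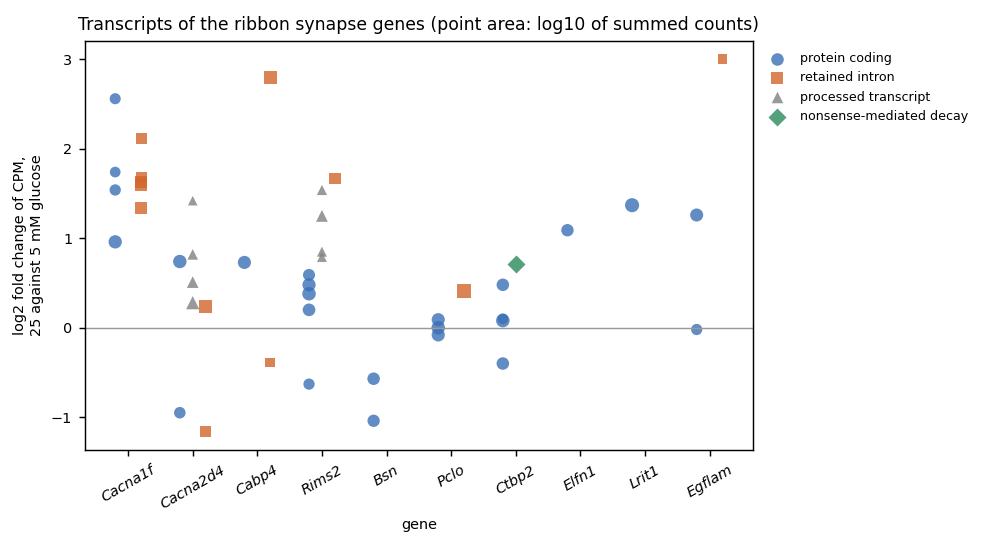
Log2 fold change of CPM, 25 mM against 5 mM glucose, of the 46 tested transcripts of the ribbon synapse genes, by gene and annotated type. Point area follows the log10 of the summed estimated counts. The retained-intron transcripts of Cacna1f and the main one of Cabp4 (log2 fold change 2.80) lie above the coding transcripts Cacna1f-201 (0.96) and Cabp4-201 (0.73).

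In Cabp4 the difference was largest in a retained-intron form. Cabp4-203 measured 5.32, 2.49 and 2.70 CPM at 5 mM and 30.3, 23.0 and 20.2 CPM at 25 mM glucose, a log2 fold change of 2.80 (SE 0.38, edgeR FDR 0.192 over all transcripts). The coding form Cabp4-201, of 271 residues, measured 20.7, 24.3 and 24.5 CPM at 5 mM and 35.1, 39.1 and 41.0 CPM at 25 mM (log2 fold change 0.73, SE 0.18, edgeR FDR 0.214). Retained-intron forms thus made up 20.6%, 11.4% and 10.8% of the estimated counts of Cabp4 at 5 mM and 47.0%, 37.1% and 33.3% at 25 mM. The groups did not overlap, and the difference in means of 24.9 percentage points had an exact permutation p of 0.1 (two-sided), the smallest that 3 replicates against 3 allow. It was 34.1 points in batch 1 and 13.0 points, with overlap, in batch 2. Libraries were made from total RNA, which can hold unspliced RNA. Its reads cannot be told apart here from those of retained-intron forms, in Cabp4 or in the other genes.

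In Cacna1f the retained-intron forms did not stand apart in this way from all coding forms. Its full-length coding form Cacna1f-201, of 1977 residues, measured 28.3, 27.6 and 24.3 CPM at 5 mM and 68.1, 41.3 and 46.2 CPM at 25 mM glucose (log2 fold change 0.96, SE 0.24, edgeR FDR 0.214). The retained-intron form Cacna1f-206 measured 10.8, 11.4 and 8.77 CPM at 5 mM and 46.3, 24.5 and 23.2 CPM at 25 mM (1.60, SE 0.33, edgeR FDR 0.202). The 5 tested retained-intron forms had log2 fold changes of 1.34 to 2.11, and the 3 shorter coding forms, each below 4 CPM on average, had 1.54 to 2.56. The retained-intron share was 35.5% ± 2.12 (SD, n = 3) at 5 mM and 44.0% ± 2.40 at 25 mM, without overlap (exact permutation p 0.1), and with overlap in each batch alone. In batch 2 the coding form Cacna1f-201 had a log2 fold change of 0.14, compared with 2.06 in batch 1. For Pclo the share was 21.9% ± 1.70 at 5 mM and 27.3% ± 1.56 at 25 mM, without overlap in either batch, although Pclo as a gene overlapped between conditions. For Cacna2d4 the order was the reverse (29.1% ± 1.84 and 25.2% ± 1.76), and it changed sign in batch 1 alone, where the difference was 2.59 points against -3.95 points in the summed replicates. These genes were singled out after their values had been seen.

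RIBEYE was read from Ctbp2-214, the transcript whose coding part is 988 residues long and whose start is the internal one described above. It measured 6.16, 14.3 and 9.66 CPM at 5 mM and 22.3, 9.15 and 10.6 CPM at 25 mM glucose. The CtBP2 form Ctbp2-209, of 420 residues, was more abundant, at 62.1, 58.7 and 45.4 CPM and at 58.5, 60.2 and 56.9 CPM, and overlapped between conditions. RIBEYE made up 7.83%, 15.8% and 13.4% of the coding Ctbp2 counts at 5 mM and 24.9%, 11.5% and 12.6% at 25 mM. Its share was high in 25 mM replicate 1 alone, and the difference of 4.0 percentage points was within the spread (exact permutation p 0.6). Without that replicate it was -0.274 points. In batch 1 alone the shares were 4.0% to 7.57% at 5 mM and 15.8% to 24.2% at 25 mM, without overlap (exact permutation p 0.1), and in batch 2 they were 12.3% to 24.4% and 5.39% to 25.5%, a difference of -4.98 points. With the decay-bound transcript Ctbp2-206, annotated to start near the same place, added, the share was 24.2% ± 4.65 (SD, n = 3) at 5 mM and 32.0% ± 10.8 at 25 mM (exact permutation p 0.6).

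**Figure D4:**
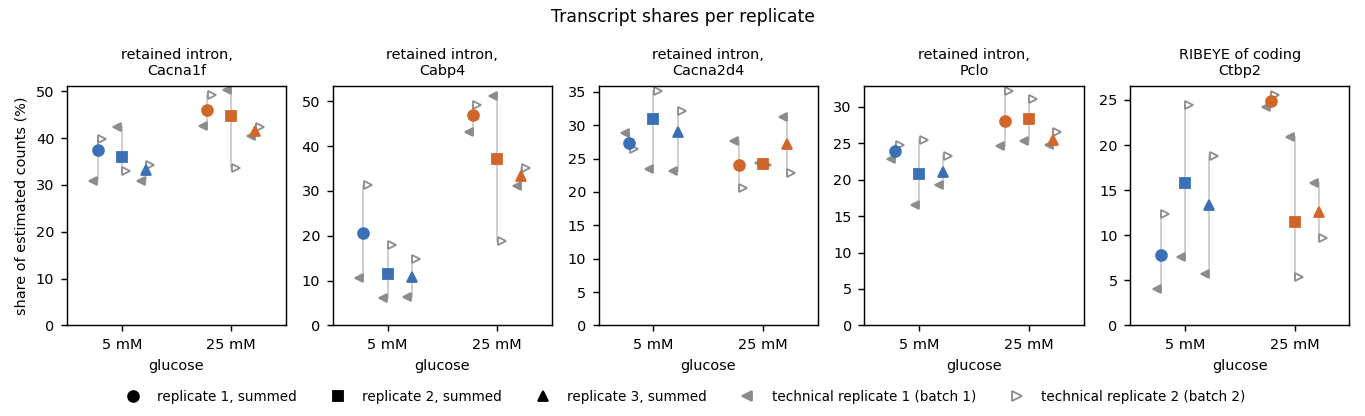
Share of estimated counts, in percent from 0, taken by retained-intron transcripts of Cacna1f, Cabp4, Cacna2d4 and Pclo, and by RIBEYE among coding Ctbp2 transcripts, at 5 mM (blue) and 25 mM glucose (orange). Large symbols are biological replicates and small triangles their technical replicates. The Cabp4 share reaches 20.6% at most at 5 mM and 33.3% at least at 25 mM, whereas RIBEYE stands out in 25 mM replicate 1 alone, at 24.9%.

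The 27 genes listed as photoreceptor presynaptic partners had a lower median log2 fold change than the members, at 0.16. Without overlap, 9 were higher and 2 lower, compared with 16.0% and 15.8% of all genes. Of these 27, 3 rose and none fell. The 3 were Mpp4, a scaffold of the photoreceptor terminal membrane (87.4 ± 15.9 CPM at 5 mM and 393.4 ± 94.5 at 25 mM, SD, n = 3, log2 fold change 2.17, edgeR FDR 0.0217), Cplx4, a complexin of ribbon synapses (60.3 ± 12.3 and 215.4 ± 44.1 CPM, 1.84, edgeR FDR 0.0238), and Kcnv2, a potassium channel subunit of photoreceptors (29.6 ± 11.7 and 137.2 ± 45.9 CPM, 2.21, edgeR FDR 0.0322). Rimbp2, which links RIM proteins to calcium channels, had the lowest value, -0.92 (edgeR FDR 0.126). Those 3 were called in 17 of 22 fits, as were Cacna1f, Cabp4 and Egflam.

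Among 12 genes listed as ON bipolar partners, 3 were higher without overlap and 1 lower, compared with 16.0% and 15.8% of all genes. The list had a median of 0.02, and 2 of its genes rose. They were Gnb5, the G protein beta subunit that pairs with RGS proteins and is also abundant in photoreceptors (104.8 ± 3.34 and 244.5 ± 46.4 CPM, log2 fold change 1.22, edgeR FDR 0.0302), and Lrit3, a protein made by photoreceptors that acts across the cleft to place the TRPM1 channel at the bipolar dendrite (4.25 ± 0.882 and 18.7 ± 7.66 CPM, 2.14, edgeR FDR 0.033). The receptor Grm6 (0.53, edgeR FDR 0.21), the channel Trpm1 (-0.04, edgeR FDR 0.904), and Gpr179 (-0.05, edgeR FDR 0.914) and Nyx (0.07, edgeR FDR 0.858), which encode proteins of the same dendrite, were not called. Gnao1, the G protein alpha subunit that mGluR6 acts through, had the lowest value, -0.62 (251.1 ± 57.9 and 163.8 ± 23.0 CPM, edgeR FDR 0.111), without overlap. The list median was 0.85 in batch 1 and -0.38 in batch 2. Of the 12 genes of the dystroglycan complex that pikachurin binds, 0 were called by edgeR and 1 by DESeq2, with 3 at an unadjusted p under 0.05, a median of 0.11 and 9 above 0. Dag1, which encodes dystroglycan itself, had a log2 fold change of -1.0, with overlap (SE 0.30, edgeR FDR 0.0886). This value was -1.64 in batch 1, -0.34 in batch 2 and -0.64 with the correction for GC content and length. Its ligand gene Egflam had 1.41, and Pomt2, a dystroglycan glycosyltransferase, had 0.52 (edgeR FDR 0.106).

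Paralogs of the members gave 2 called genes of 19, both higher: Lrit2 (24.4 ± 4.54 and 81.6 ± 17.3 CPM, log2 fold change 1.74, edgeR FDR 0.0261) and Lrit3. The 3 Lrit genes measured thus had log2 fold changes of 1.44, 1.74 and 2.14. Among calcium channel paralogs, Cacna1c, which encodes Cav1.2, had -1.31 without overlap (36.0 ± 11.6 and 14.5 ± 0.911 CPM, edgeR FDR 0.0516). The list median was -0.15, with 7 of 19 above 0. Of 15 genes of conventional synapses in the inner retina, 2 fell and none rose, with a median of -0.44. Without overlap, 8 were lower, compared with 15.8% of all genes. Some of the 15, Slc32a1 among them, are also in the list of amacrine markers below. Cplx2, a complexin of conventional synapses, had -0.90 (edgeR FDR 0.0429), and Syn1, a synapsin absent from ribbon terminals, had -1.01 (edgeR FDR 0.0426), which became -0.60 (edgeR FDR 0.17) with the correction for GC content and length. Slc32a1, the vesicular transporter for GABA and glycine, had -1.61 (edgeR FDR 0.0697) and Slc17a6, a vesicular glutamate transporter, 1.26 (SE 1.03, edgeR FDR 0.436).

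**Figure D5:**
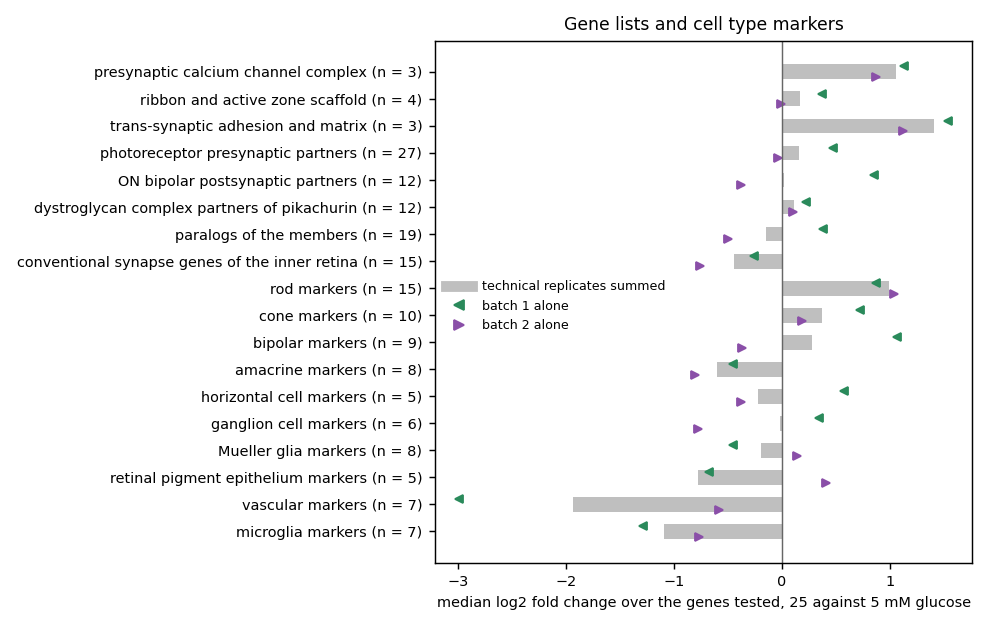
Median log2 fold change, 25 mM against 5 mM glucose, over the tested genes of each list (bars, technical replicates summed) and in batch 1 (green) and batch 2 (purple) alone. Rod markers (0.99) and the channel and adhesion groups of the ribbon synapse (1.06 and 1.41) lie above 0 in both batches, whereas ON bipolar partners change sign between batches (0.85 and -0.38).

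Rod markers were also higher at 25 mM glucose. All 15 genes in a list of rod markers were detected. Their summed level was 4056.0 to 7034.0 CPM at 5 mM and 8467.7 to 11267.1 CPM at 25 mM glucose, without overlap, and 6 of the 15 were called higher, with a median log2 fold change of 0.99. Called rod genes with the lowest FDR were Pde6b (1.65), Nrl (1.33), Cnga1 (2.12), Nr2e3 (0.99) and Pde6a (1.06). Of 10 cone markers, 1 was called (Opn1mw, 1.24 ± 0.123 and 4.18 ± 1.29 CPM, log2 fold change 1.75, edgeR FDR 0.042). Another cone opsin gene, Opn1sw, went the other way without overlap (2.76 and 1.36 CPM, -1.01, edgeR FDR 0.0704). The list median was 0.37, with 6 of the 10 above 0. Sums of the cone markers overlapped (216.4 to 370.3 and 242.8 to 394.2 CPM). Most of these sums, on average, came from Gnb3 (219.8 and 204.7 CPM), which is also among the ON bipolar partners. In bulk RNA, fewer cells of a type and less RNA per cell cannot be told apart.

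Relative to the summed rod markers, whose log2 difference was 0.79, the members divided by direction. Elfn1 (log2 difference 0.49) and Egflam (0.59) remained higher at 25 mM without overlap, and Cacna1f (0.76), Lrit1 (0.63), Cabp4 (0.27) and Rims2 (0.03) were above 0 with overlap. Cacna2d4 (-0.41), Ctbp2 (-0.61) and Bsn (-1.42) lay lower without overlap, and Pclo (-0.62) with overlap. These ratios were given no test, and the part of rod RNA in the members' differences was not tested.

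Markers of the other cells were lower or overlapped. Summed amacrine markers were 459.2 to 545.2 CPM at 5 mM and 281.2 to 414.1 CPM at 25 mM, Mueller glia markers 3164.4 to 4262.1 and 2034.7 to 2961.4 CPM, and vascular markers 1092.0 to 1849.3 and 593.8 to 1000.4 CPM, each without overlap. In the Mueller glia list Vim had a log2 fold change of -1.51 (1892.4 and 662.7 CPM, edgeR FDR 0.0555) and made up most of the difference of the sums, while Slc1a3 had 0.35, Aqp4 0.76 and Kcnj10 0.53. The median of that list was -0.19, and -0.45 and 0.14 in batches 1 and 2. In these 3 lists edgeR called 0 genes, with 4, 3 and 5 at an unadjusted p under 0.05, and DESeq2 called 4, 1 and 5. Microglia markers (82.9 to 179.7 and 47.5 to 100.2 CPM, 7 genes), bipolar (1364.8 to 1545.3 and 1185.2 to 1548.6 CPM, 9 genes), horizontal (56.7 to 76.5 and 59.0 to 74.3 CPM, 5 genes) and ganglion cell markers (174.2 to 241.8 and 172.7 to 207.7 CPM, 6 of 7 tested) overlapped. There edgeR called 0 genes, with 4, 4, 0 and 1 at an unadjusted p under 0.05 in that order, and DESeq2 called 2, 3, 0 and 1. Markers of the removed pigment epithelium summed to no more than 4.98 CPM, with Rpe65 under 0.1 CPM in every replicate, and edgeR called 0 of the 5 tested (2 at an unadjusted p under 0.05, 2 by DESeq2). The part of these cells in the members' differences was not tested.

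Finally, each member was matched to the gene whose profile over the 6 summed replicates was nearest, by the root mean square distance of centred log2 CPM, among 10606 genes with a mean of at least 10 CPM. These were Gm26797 for Cacna1f (0.0609), Rdh12 for Cabp4 (0.0586), Zswim3 for Cacna2d4 (0.0507), Rad51c for Rims2 (0.0547), Mmgt1 for Pclo (0.0504), Foxo3 for Ctbp2 (0.0482), Atcay for Bsn (0.098), Casz1 for Elfn1 (0.0915), Dgke for Lrit1 (0.0893) and Rp1l1 for Egflam (0.113). The root mean square spread of the members themselves ranged from 0.175 for Ctbp2 to 0.841 for Cacna1f. Among the members themselves, Cacna1f and Lrit1 were nearest to each other (0.154), as were Elfn1 and Egflam (0.24), and Bsn was farthest from any (0.472 to Ctbp2). These distances describe 6 replicates and carry no test.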

How the data were processed

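RNA was measured in 12 libraries of mouse retinal explants, 6 at 5 mM and 6 at 25 mM glucose. The authors deposited an estimated count (expected count) for each gene and each transcript in every technical replicate, without scaling between libraries. The submitters' processing notes name GRCm38, and the aligner, counter, annotation and use of strand are not given in the sources used here. Column totals of the 2 tables agreed to within 0.001 counts although gene values departed from the sums of their transcripts, and 100.0% of nonzero gene values and 86.2% of nonzero transcript values were not whole (tolerance 1e-06). The low-input stranded kit adds PCR cycles, and without molecular identifiers totals bound counting error only.

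Technical replicates were summed and rounded, giving 3 biological replicates against 3. Between 2 libraries of a condition, the variance was expressed as a multiple of that from counting error alone. It was 40.6 to 128.4 for technical pairs and 23.5 to 206.9 for libraries of different biological replicates. Technical replicates were thus not always closer to each other than to other replicates. Symbols, positions and transcript types came from GENCODE M21 on GRCm38, which matched 48714 of 53707 genes (90.7%) and 92.0% of 146263 transcripts. Under R 4.3.3, edgeR 4.0.16 was used with TMM factors (0.922 to 1.056), filterByExpr and the quasi-likelihood test in its earlier form, with no block for replicate number, and p-values were adjusted by Benjamini-Hochberg over all features tested and an FDR threshold of 0.05. The biological coefficient of variation was 0.297. CPM used TMM factors, log2 CPM a prior count of 2, and TPM the transcript counts divided by annotated length. Alternatives used DESeq2 1.42.0 and limma 3.58.1, other normalizations and filters, a block for replicate number, values corrected for GC content and length, each batch alone and each replicate left out. Shares and single values were compared by exact two-sided permutation tests, for which 0.1 is the smallest p. The fits were tested on simulated data. Tables and plots were made with Python 3.11.15, pandas 2.3.3, scipy 1.17.1 and matplotlib 3.10.9.

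The members and all gene lists were chosen with earlier results of these data known. Text names all 10 members, up to 5 called genes of each other list by FDR, the highest and lowest log2 fold change of each list of partners, paralogs or conventional synapse genes, and the nearest profile of each member. Grm6, Trpm1, Gpr179, Nyx, Opn1sw, Gnb3 and 4 Mueller glia markers were named after their values were seen. No deposited columns were left unused; CUT&Tag and 2-DG data were not analysed here. Own values of some listed genes are not reported here.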

Additional observations from a re-analysis of the deposited data

Results flagged for a closer look

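In 2 of 20 groups of 6 libraries (10 genes at 2 glucose concentrations), a single library lay farther from its neighbours than the 95% limit of Dixon's test; chance alone flags about 1 in 20, or 1.0 of 20. Pclo in the second technical replicate of 5 mM replicate 1 measured 246.1 CPM, where the next highest library at 5 mM measured 147.2 CPM. Ctbp2 in the second technical replicate of 25 mM replicate 1 measured 129.0 CPM, where the next highest at 25 mM measured 105.3 CPM.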

How the results depend on the processing

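Under 22 alternatives the direction of a member's log2 fold change held in 213 of 220 values, and the exceptions were members with log2 fold changes of 0.40 or less: Cacna2d4 was -0.16 in batch 2 alone, and Pclo was -0.20 in batch 2 alone, -0.02 with the correction for GC content and length and -0.02 with that correction and the replicate block. Relative to the summed rod markers, Cacna2d4 was -0.41, Pclo -0.62 and Ctbp2 -0.61. The retained-intron share of Cacna2d4 differed by 2.59 points in batch 1 alone, and the RIBEYE share by -4.98 points in batch 2 alone and by -0.274 to 6.41 points when 1 replicate was left out, the lowest without 25 mM replicate 1.

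The number of members called was 3 with RLE factors (407 genes), library totals (459), limma-voom (418), the newer quasi-likelihood method (595), a CPM filter (444), technical replicates at equal depth (383) and summed transcript counts (334). It was 6 with DESeq2 (3489 genes), 5 without a filter (1979 genes), 7 with the GC and length correction (2712 genes), 8 with that correction and the replicate block (3325 genes, Ctbp2 gained), 6 with 12 libraries and a batch term (2918 genes), which counts both technical replicates of each of the 6 biological replicates as samples, 7 in batch 1 alone (3279 genes) and 0 in batch 2 alone (0 genes, edgeR), where 4 members and 2203 genes had an unadjusted p under 0.05. At an FDR under 0.1 it was 6 (3035 genes). At an FDR under 0.01 with a fold over 2 it was 0 by edgeR (0 genes) and 5 by DESeq2 (1387 genes). Leaving out 1 replicate gave 0 to 7 members and 0 to 5845 genes called, and 6 to 7 members without overlap where 35.7% to 63.7% of all genes did not overlap, compared with 3 members and 16.3% of genes in batch 2 alone; the member transcripts called went from 0 to 12 with DESeq2. The cause of these differences was not tested.

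With the replicate number as a block, 990 genes and 4 members (Lrit1 beside the other 3) were called, of which 40.9% of the genes were higher. Replicates with the same number did not all deviate together (correlations of -0.014, -0.449 and 0.285), and not every replicate correlated best with its own number. With 3 replicates per condition, each centred on the mean of its condition, these correlations cannot decide whether the numbers pair samples. Depth left all 10 members but 46 of their 73 transcripts for testing.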
